A study of Mus musculus with 24 samples.

Results

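The 7 Ugt2b genes of the mouse, Ugt2b1, Ugt2b5, Ugt2b34, Ugt2b35, Ugt2b36, Ugt2b37 and Ugt2b38, were followed in liver across 4 diets. They were chosen by symbol, with earlier results of these data known. All 7 were found among the 15161 genes of the deposited count table and passed the filter on low counts. The livers came from male C57BL6/J mice, an inbred strain, at 4 months of age, with 6 libraries per diet. In the elemental MR group the protein was replaced by free amino acids and methionine was restricted (MR) to 0.17% of the diet, and the elemental control had the same protein source with 0.86% methionine. In the casein MR group the casein, the main milk protein, was oxidised and the diet held 0.17% methionine, and the casein control held 0.86%. The casein control was not labelled as oxidised, so methionine restriction and oxidation of the casein cannot be told apart in the casein comparison. The labels do not say that libraries came from separate mice, so p-values measure only how far these samples spread, and no duration of feeding is given there.

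UDP-glucuronosyltransferases sit in the membrane of the endoplasmic reticulum and transfer glucuronic acid from UDP-glucuronate to lipophilic molecules. The products are soluble glucuronides that leave the hepatocyte for bile or blood. Enzymes of the UGT2B group are known for conjugating steroid hormones, bile acids, fatty acids and drugs, and liver is a main site of their expression. Each Ugt2b gene has its own promoter and its own full set of exons, whereas the Ugt1a enzymes are made from alternative first exons joined to shared last exons.

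The family lies in a cluster on chromosome 5 in the order Ugt2b34, Ugt2b1, Ugt2b35, Ugt2b36, Ugt2b5, Ugt2b37 and Ugt2b38, with Ugt2a3 between the last pair (GENCODE annotation of GRCm38). Positions below are those of the reference, since the sources used here do not name the build of the authors' alignment. The 100 bases before each RefSeq start site are shown because members that moved in opposite directions share much of this sequence. Capitals mark GTTA and TAAC with 5 free bases between them, an inverted repeat that reads the same on both strands.

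Ugt2b34, chr5:86906938-86907037, minus strand: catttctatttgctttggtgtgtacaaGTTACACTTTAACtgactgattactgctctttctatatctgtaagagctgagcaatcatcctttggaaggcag
Ugt2b1, chr5:86926504-86926603, minus strand: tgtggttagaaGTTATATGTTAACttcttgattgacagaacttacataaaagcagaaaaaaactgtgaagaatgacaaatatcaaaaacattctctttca
Ugt2b35, chr5:87000760-87000859, plus strand: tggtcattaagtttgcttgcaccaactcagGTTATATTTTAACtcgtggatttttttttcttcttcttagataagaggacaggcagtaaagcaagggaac
Ugt2b36, chr5:87092556-87092655, minus strand: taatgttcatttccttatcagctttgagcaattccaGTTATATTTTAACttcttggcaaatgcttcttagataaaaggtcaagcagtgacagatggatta
Ugt2b5, chr5:87140341-87140440, minus strand: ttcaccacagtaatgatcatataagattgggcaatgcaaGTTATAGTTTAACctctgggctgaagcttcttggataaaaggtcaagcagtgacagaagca
Ugt2b37, chr5:87254789-87254888, minus strand: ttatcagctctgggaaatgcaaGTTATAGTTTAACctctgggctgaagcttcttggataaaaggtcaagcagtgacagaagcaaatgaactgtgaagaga
Ugt2b38, chr5:87424204-87424303, minus strand: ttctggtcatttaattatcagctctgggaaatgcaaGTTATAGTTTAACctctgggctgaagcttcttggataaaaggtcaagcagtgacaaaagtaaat

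These letters were found once in the 250 bases before the start of each of the 7 genes, at 61 to 89 bases before it (first base of the match). They were found in 0.307% of the 32851 mouse promoters of the same length in the RefSeq table (GRCm38.p6), and they were picked after the 7 sequences had been seen. The matched 13 letters were GTTATAGTTTAAC in Ugt2b5, Ugt2b37 and Ugt2b38 and GTTATATTTTAAC in Ugt2b35 and Ugt2b36. Ugt2b5, Ugt2b37 and Ugt2b38 further share an unbroken run of 62 bases around the site. Of 4 other motifs searched on both strands none was in any member: GTTAAT (6.43% of all promoters), TTCNNNGAA of STAT factors (7.02%), TGACNNNGC of the antioxidant response element (10.2%) and the DR1 element, AGGTCA repeated after 1 free base (0.0335%). A match is a description of letters and does not show binding, and the absence of one says nothing about a factor.

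The libraries held 13458941 to 20762532 counted reads. Liver identity was plain, with 6 of 7 hepatocyte markers in the table at summed levels of 58989 to 112180 CPM (a gene's counts scaled to the library size as adjusted by trimmed means) in every library, while Tf had no row. That sum was lower with MR on both protein sources. It ran from 80531 to 88431 CPM in elemental MR against 102280 to 112180 in elemental control, and from 58989 to 66812 CPM in casein MR against 91130 to 108780 in casein control, and its part in the results below was not tested. Summed cholangiocyte markers were also lower with elemental MR, at 20.6 to 33.5 CPM against 36.1 to 58.9 in elemental control. With casein the ranges overlapped, at 24.1 to 46.8 CPM in casein MR (median 30.3) against 42.8 to 82.6 in casein control (median 58.3). The part of these markers was not tested either. With elemental MR 2 of 6 hepatocyte and 1 of 5 cholangiocyte markers tested were called lower and 0 higher (6.64% of all genes lower). With casein MR these were 6 of 6 and 3 of 5 lower and 0 higher (12.7% of all genes lower). Summed stellate and fibroblast markers ran from 313 to 363 CPM in elemental MR against 366 to 438 in elemental control, with no overlap. They overlapped with casein, at 333 to 462 CPM in casein MR against 371 to 439 in casein control. Of the 7 markers, 2 were called lower and 0 higher with elemental MR, where 6.64% of all genes were called lower and 6.78% higher. With casein MR 1 marker was called higher and 0 lower, where 10.6% of all genes were called higher and 12.7% lower. The part of these markers was not tested. In whole tissue, fewer cells of a type and less RNA per cell cannot be told apart. The casein MR library C_MR_3438 stood apart, with summed skeletal muscle markers (7 of 7 in the table) at 1715 CPM against 4.93 to 59.0 in the other 23 libraries. Of the 4 kidney tubule markers, Slc34a1, Kap and Slc5a12 had no row and Lrp2 stood at 1.95 CPM or less, and of the 4 intestinal markers Lct and Cdx2 had no row, while Vil1 and Fabp2 summed to 70.8 to 192 CPM.

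**Figure D1:**
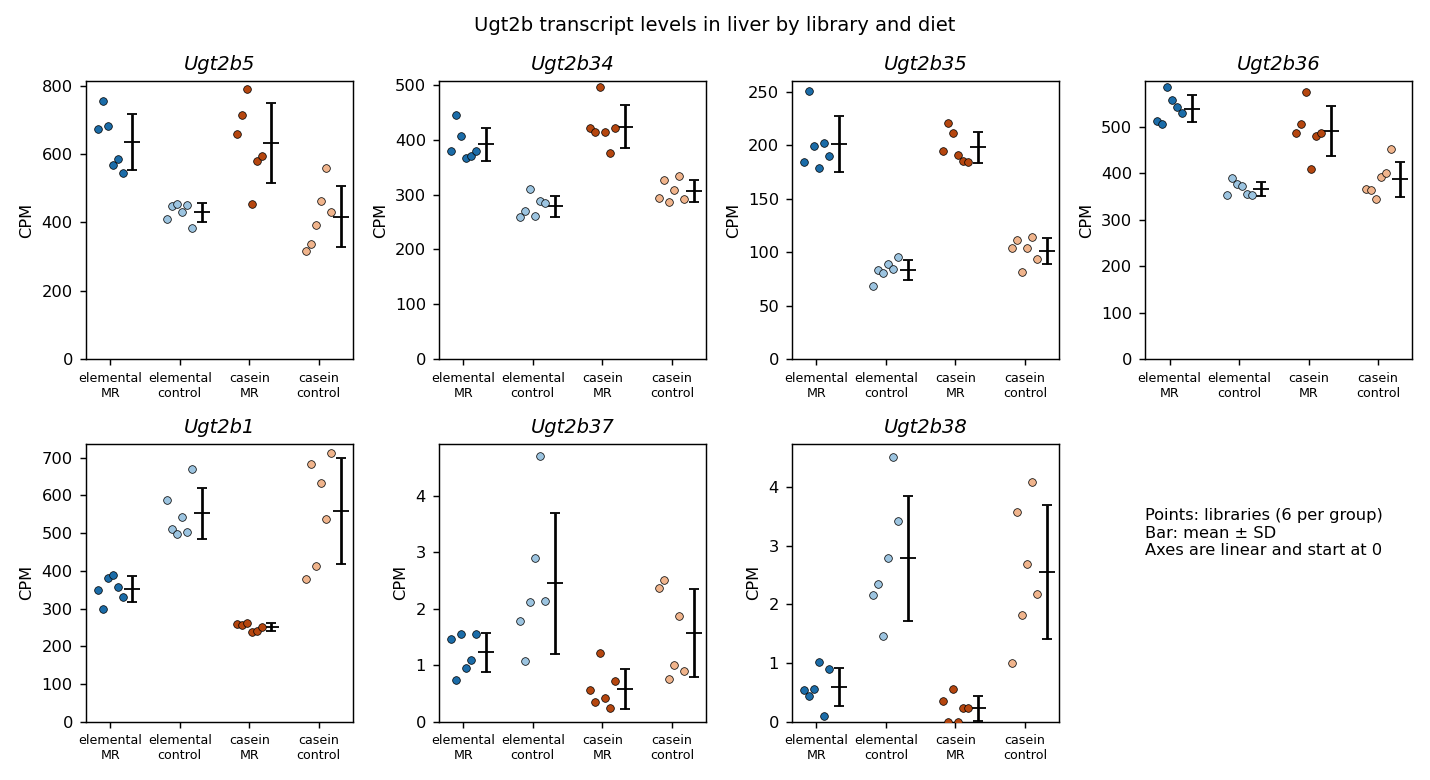
Level of each Ugt2b gene in CPM (linear axes from 0) in the 24 liver libraries, by diet group, with the mean and SD of 6 libraries beside the points. The upper 4 genes stood higher in both MR groups than in their controls, and the lower 3 genes stood lower.

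Methionine restriction with free amino acids split the family. Ugt2b5, Ugt2b34, Ugt2b35 and Ugt2b36 rose, and Ugt2b1 and Ugt2b38 fell. By the quasi-likelihood test of edgeR with Benjamini-Hochberg adjustment, 6 of the 7 genes were called at 0.05, as were 13.4% of the 13441 genes tested. The members were chosen with earlier results of these data known, so this contrast is a description. The 4 that rose compare with 6.78% of all genes called higher and the 2 that fell with 6.64% called lower. The median absolute log2 fold change was 0.65 over the 7 members and 0.16 over all genes tested. In each of the 6 called genes the ranges of the MR and control libraries did not overlap. The share of all genes tested without such overlap was not counted, so this is a description only.

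Ugt2b35 had the largest rise of the family. It stood at 178 CPM in the lowest, 194 in the median and 251 in the highest elemental MR library, against 68.1, 84.0 and 95.6 CPM in elemental control. Its log2 fold change was 1.27 ± 0.09 (SE, n = 6 per group, adjusted p = 1.58e-10).

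Ugt2b5, an enzyme that conjugates steroids and phenols, had the highest mean CPM per kilobase of exon of the members in each diet group, although Ugt2b1 exceeded it in some control libraries. Its lowest, median and highest values were 545, 629 and 755 CPM in elemental MR, against 383, 439 and 454 CPM in elemental control. The lowest MR library thus lay above the highest control library, and the log2 fold change was 0.57 ± 0.12 (adjusted p = 0.00218).

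Ugt2b36, the neighbour of Ugt2b5 in the cluster, stood at 506, 536 and 586 CPM in elemental MR, against 352, 364 and 389.6 CPM in elemental control (lowest, median and highest library). Its log2 fold change was 0.56 ± 0.07 (adjusted p = 2.60e-06). Ugt2b34 stood at 367, 380.0 and 445 CPM in elemental MR, against 259.7, 278 and 309 CPM in elemental control, a log2 fold change of 0.49 ± 0.06 (adjusted p = 6.67e-06). These rises were of similar size, with 95% intervals of 0.42 to 0.70 for Ugt2b36 and 0.36 to 0.62 for Ugt2b34.

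Ugt2b1, whose rat counterpart conjugates bisphenol A, moved the other way. Its lowest, median and highest values were 298, 354 and 389 CPM in elemental MR, against 498, 526 and 671 CPM in elemental control. The log2 fold change was -0.65 ± 0.12 (adjusted p = 3.53e-04).

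Ugt2b38 and Ugt2b37 were expressed at a far lower level than the other members. Ugt2b38 had 2 to 18 counts per library in elemental MR, with a lowest, median and highest level of 0.103, 0.554 and 1.02 CPM, against 18 to 72 counts and 1.46, 2.56 and 4.51 CPM in elemental control. Its log2 fold change was -2.23 ± 0.44 (adjusted p = 7.87e-04), the largest change of the family. Ugt2b37 had 12 to 26 counts and 0.747, 1.27 and 1.56 CPM in elemental MR, against 18 to 75 counts and 1.08, 2.13 and 4.69 CPM in elemental control, and the ranges overlapped. Its log2 fold change of -0.997 ± 0.35 did not pass (adjusted p = 0.0589). It passed with the stricter filter (adjusted p = 0.0489), with DESeq2 (adjusted p = 0.0357), with the compared groups alone (adjusted p = 0.0406) and without E_C_3417 (adjusted p = 0.0276), and over all alternatives its adjusted p ran up to 0.198.

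**Figure D2:**
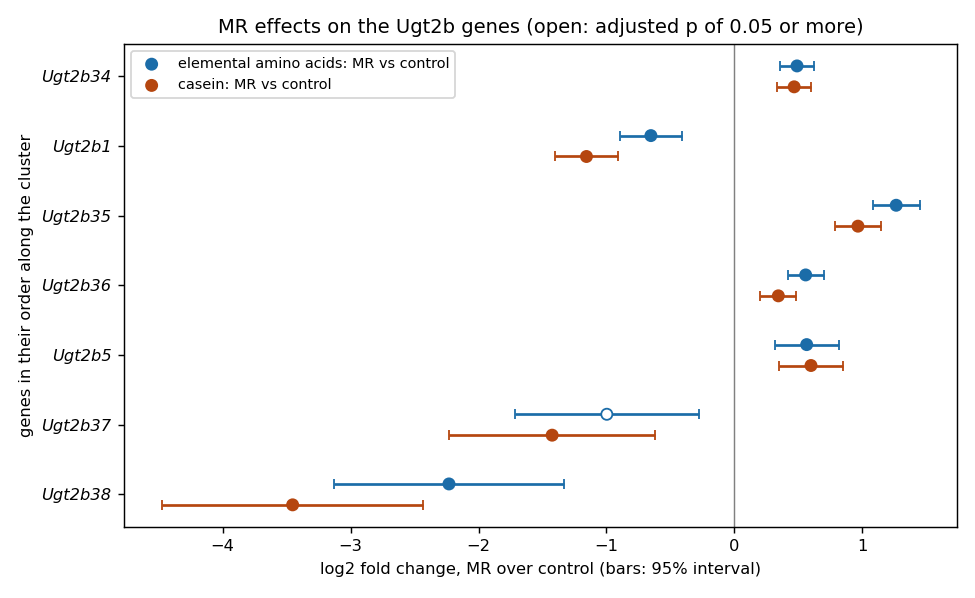
Log2 fold change of MR over control (x axis) for the Ugt2b genes in their order along the cluster (y axis), for elemental amino acids and for casein, with 95% intervals. Filled points passed an adjusted p of 0.05; Ugt2b34, Ugt2b35, Ugt2b36 and Ugt2b5 lie right of 0 and Ugt2b1, Ugt2b37 and Ugt2b38 left of 0 on both protein sources.

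With oxidised casein the same 4 genes rose and Ugt2b1, Ugt2b37 and Ugt2b38 fell. All 7 members passed, while 23.3% of the genes tested did so in this comparison. This contrast too is a description only. The 4 higher genes compare with 10.6% of all genes called higher and the 3 lower genes with 12.7% called lower. The median absolute log2 fold change was 0.97 over the members and 0.18 over all genes tested. The ranges of the 2 groups did not overlap for Ugt2b1, Ugt2b34, Ugt2b35 and Ugt2b38, and they overlapped for Ugt2b5, Ugt2b36 and Ugt2b37. Here too the share of all genes without overlap was not counted.

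Ugt2b1 fell here too, and its casein MR libraries lay close together. Its lowest, median and highest values were 239, 253 and 261 CPM in casein MR, against 378, 585 and 713 CPM in casein control. The mean was 251 ± 9.48 CPM in casein MR and 559.5 ± 141 CPM in casein control (SD, n = 6 each), and the log2 fold change was -1.16 ± 0.12 (adjusted p = 3.46e-08).

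Ugt2b38 fell to the edge of detection. It had 0 to 9 counts per library in casein MR (lowest, median and highest 0, 0.232 and 0.549 CPM), against 16 to 59 counts (0.995, 2.43 and 4.08 CPM) in casein control. The log2 fold change was -3.45 ± 0.50 (adjusted p = 6.38e-06). The 2 libraries at 0 counts were C_MR_3419 and C_MR_3431, where 3 counts, the limit that a count of 0 allows, correspond to 0.172 and 0.155 CPM (counting error only). Ugt2b5 had 12424 and 8758 counts in these same libraries. Ugt2b37 stood at 0.236, 0.484 and 1.22 CPM in casein MR, against 0.763, 1.43 and 2.51 CPM in casein control, a log2 fold change of -1.42 ± 0.39 (adjusted p = 0.0081).

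Among the genes that rose, Ugt2b35 again led. Its values were 184, 193 and 221 CPM in casein MR, against 81.4, 104 and 114 CPM in casein control (lowest, median and highest), a log2 fold change of 0.97 ± 0.09 (adjusted p = 4.48e-09). Ugt2b34 stood at 376, 418 and 495 CPM in casein MR, against 286, 301 and 333 CPM in casein control (log2 fold change 0.47 ± 0.06, adjusted p = 3.62e-06). Every casein MR library lay above every casein control library for both genes.

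Ugt2b5 and Ugt2b36 spread more widely here. Ugt2b5 ran over 453, 627 and 789.9 CPM in casein MR, against 316, 412 and 560.0 CPM in casein control, a log2 fold change of 0.60 ± 0.12 (adjusted p = 5.27e-04). Ugt2b36 ran over 409.6, 486 and 575 CPM in casein MR, against 345, 379 and 453 CPM in casein control, a log2 fold change of 0.34 ± 0.07 (adjusted p = 4.13e-04). For both genes the lowest casein MR library was C_MR_3431. Without C_MR_3438, the library with muscle transcripts, all 7 genes still passed, with log2 fold changes of -1.16 for Ugt2b1, 0.62 for Ugt2b5, 0.47 for Ugt2b34, 0.99 for Ugt2b35, 0.35 for Ugt2b36, -1.51 for Ugt2b37 and -3.46 for Ugt2b38.

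Whether the MR effect differed between the protein sources was tested as a difference of the log2 fold changes, casein minus elemental. Only the casein MR diet was labelled as oxidised, so protein source and oxidation cannot be told apart in this difference. None of the 7 members passed (0 with edgeR, 0 with DESeq2 and 0 with limma-voom, and 3 at an unadjusted p under 0.05 with edgeR), while 2.34% of all genes did (0.781% with a higher and 1.56% with a lower effect in casein). The largest difference with an unadjusted p under 0.05 was that of Ugt2b1, -0.50 (95% interval -0.85 to -0.16, adjusted p = 0.131). It passed without C_C_3407 (-0.59, adjusted p = 0.0211) and without C_C_3421 (-0.58, adjusted p = 0.0485), which were the 2 casein control libraries with the lowest Ugt2b1. Ugt2b35 differed by -0.30 (interval -0.55 to -0.04, adjusted p = 0.281) and Ugt2b36 by -0.21 (interval -0.41 to -0.01, adjusted p = 0.346). The intervals were -0.32 to 0.39 for Ugt2b5, -0.21 to 0.17 for Ugt2b34, -1.50 to 0.64 for Ugt2b37 and -2.62 to 0.18 for Ugt2b38, so that the low counts of Ugt2b37 and Ugt2b38 leave differences of more than 2-fold within the interval.

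Set against each other, the restricted diets differed in Ugt2b1. It averaged 251 ± 9.48 CPM in casein MR and 351 ± 33.8 CPM in elemental MR (SD, n = 6 each), with no overlap of the libraries (log2 fold change -0.48 ± 0.12, adjusted p = 0.0103). It was the 1 member of 7 called in this comparison, in which 6.5% of all genes were called (2.72% higher and 3.78% lower). Ugt2b37 (-1.08 ± 0.39, adjusted p = 0.105) and Ugt2b38 (-1.36 ± 0.57, adjusted p = 0.171) did not pass, and Ugt2b37 passed without C_MR_3425 (-1.40, adjusted p = 0.0367). Between the control diets none of the 7 passed (0 with edgeR, 0 with DESeq2 and 0 with limma-voom, and 2 at an unadjusted p under 0.05 with edgeR), where 0.104% of all genes were called (0.0298% higher and 0.0744% lower). The value nearest to a call was that of Ugt2b35, 0.28 ± 0.09 for casein control over elemental control (adjusted p = 0.205). These comparisons share libraries with the MR comparisons above and are not independent of them. Casein MR and elemental MR differ in protein source and in the labelled oxidation, which cannot be told apart.

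The summed level of the family, which does not depend on how the reads assigned to it were divided among its copies, changed less than any single member. It averaged 2120 ± 115 CPM in elemental MR and 1715 ± 39.4 CPM in elemental control, and 1996 ± 215 CPM in casein MR and 1775 ± 228 CPM in casein control (SD, n = 6 each). The elemental groups did not overlap (1976 to 2260 CPM in MR, 1683 to 1791 CPM in control), while the casein groups did (1708 to 2333 CPM in MR, 1459.9 to 1986 CPM in control). These sums are given as a description, with no test.

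Within that sum the mean share of Ugt2b1 was lower with MR, and those of Ugt2b35, Ugt2b5, Ugt2b36 and Ugt2b34 were higher. The shares are parts of the same sum, so a fall in Ugt2b1 alone would raise the others. Ugt2b1 supplied 16.6 ± 1.86% of the summed CPM in elemental MR and 32.2 ± 3.39% in elemental control, and 12.7 ± 0.945% in casein MR and 31.2 ± 4.95% in casein control. Ugt2b35 supplied 9.46 ± 0.940% in elemental MR and 4.86 ± 0.466% in elemental control, and 9.96 ± 0.761% in casein MR and 5.76 ± 0.819% in casein control. The mean share of Ugt2b5 was 29.9% in elemental MR and 25.1% in elemental control, and 31.4% in casein MR and 23.5% in casein control. In the same order of groups it was 25.5, 21.4, 24.6 and 21.9% for Ugt2b36 and 18.5, 16.3, 21.3 and 17.5% for Ugt2b34. The casein MR and casein control shares overlapped for Ugt2b5, Ugt2b36 and Ugt2b34. The ratio of Ugt2b5 to Ugt2b1 CPM was 1.83 ± 0.376 in elemental MR and 0.791 ± 0.135 in elemental control, and 2.51 ± 0.389 in casein MR and 0.777 ± 0.208 in casein control. Its ranges did not overlap on either protein source (1.46 to 2.53 in MR and 0.570 to 0.913 in control with elemental amino acids, 1.89 to 3.03 in MR and 0.494 to 1.04 in control with casein). As Ugt2b5 rose and Ugt2b1 fell in these same libraries, the shift of their ratio follows from those results and is a description only.

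**Figure D3:**
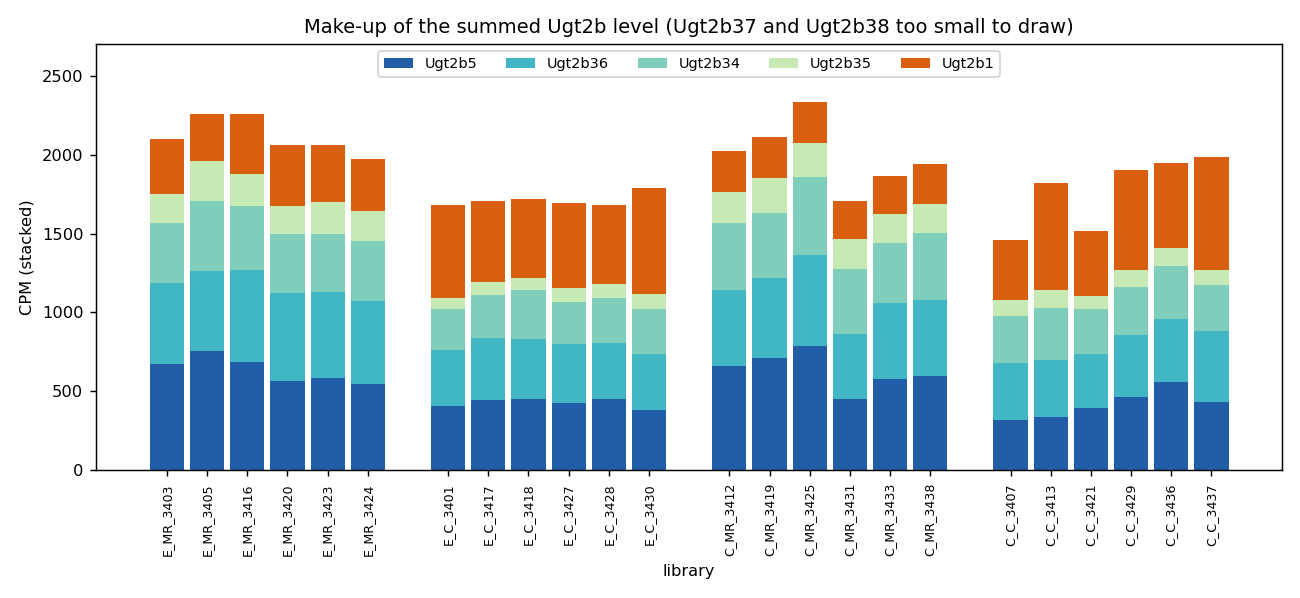
Stacked CPM of the 5 abundant Ugt2b genes (y axis) in each of the 24 libraries (x axis), MR groups left of their controls; Ugt2b37 and Ugt2b38 are too low to draw. The orange Ugt2b1 segment is 11.2 to 18.9% of the sum in MR libraries and 25.9 to 37.5% in control libraries.

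Levels of different genes were compared as CPM per kilobase of annotated exon. In elemental MR the order was Ugt2b5 (342 ± 43.8 CPM per kb), Ugt2b36 (262 ± 14.5), Ugt2b1 (137 ± 13.1), Ugt2b34 (90.8 ± 6.90), Ugt2b35 (59.8 ± 7.75), Ugt2b37 (0.648 ± 0.182) and Ugt2b38 (0.314 ± 0.174; SD, n = 6). In elemental control Ugt2b5 (231 ± 15.2) and Ugt2b1 (215 ± 26.2) lay within their spread of each other, above Ugt2b36 (178 ± 7.49), Ugt2b34 (64.7 ± 4.39) and Ugt2b35 (24.9 ± 2.74), and Ugt2b38 (1.47 ± 0.565) lay within its spread of Ugt2b37 (1.30 ± 0.658). Ugt2b1 thus ranked next to Ugt2b5 in the control and behind Ugt2b36 with MR.

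In casein MR the order per kilobase was Ugt2b5 (340 ± 62.9), Ugt2b36 (238 ± 25.7), then Ugt2b34 (98.3 ± 9.02) and Ugt2b1 (97.6 ± 3.69) within their spread of each other, Ugt2b35 (58.9 ± 4.41), Ugt2b37 (0.308 ± 0.188) and Ugt2b38 (0.120 ± 0.112). In casein control Ugt2b5 (224 ± 47.97), Ugt2b1 (217 ± 54.8) and Ugt2b36 (188 ± 18.6) lay within their spread, followed by Ugt2b34 (71.1 ± 4.51), Ugt2b35 (30.2 ± 3.58), Ugt2b38 (1.35 ± 0.602) and Ugt2b37 (0.827 ± 0.411). Ugt2b37 and Ugt2b38 lay within their spread of each other in all 4 groups. The annotated exons of Ugt2b34 together span 4312 bases, more than the 3051 bases of the transcript used for its sequence, which lowers its value on this scale.

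Genes of near-identical sequence moved in opposite directions. The most similar coding sequences were those of Ugt2b5 and Ugt2b38, with 97.0% identical bases, and Ugt2b5 rose while Ugt2b38 fell on both protein sources. Ugt2b5 and Ugt2b37 were 94.7% identical and Ugt2b37 and Ugt2b38 94.1%. Ugt2b1 was 71.2 to 74.6% identical to the other 6 genes, and Ugt2b34 71.2 to 74.6%, although Ugt2b34 rose and Ugt2b1 fell. In the 250 bases before the start site Ugt2b5 was 81.5% identical to Ugt2b38 and 72.6% to Ugt2b37, and Ugt2b37 and Ugt2b38 were 84.8% identical.

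Near-identical copies can trade reads in counting, and the counting tool is not given in the sources used here. Of the windows of 50 bases in the annotated transcript, 41.7% of those of Ugt2b5, 37.4% of Ugt2b38 and 18.3% of Ugt2b37 occurred in another member, against 0.326% of Ugt2b36 and 0% of Ugt2b1, Ugt2b34 and Ugt2b35. The values of Ugt2b5, Ugt2b37 and Ugt2b38 are therefore uncertain, and these shares do not measure by how much. Ugt2b5 had 4172 to 13078 counts per library, against 5 to 75 for Ugt2b37 and 0 to 72 for Ugt2b38. A small part of the Ugt2b5 counts would thus equal all the counts of either low copy. Whether a trade of reads among these copies had a part in their values was not tested.

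**Figure D4:**
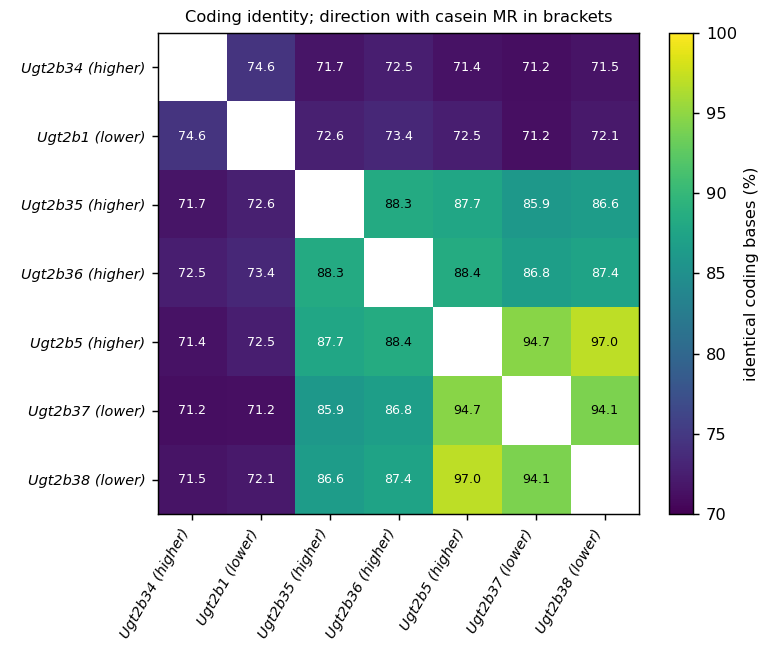
Percent of identical bases between the aligned coding sequences of each pair of Ugt2b genes (colour and number), in their order along the cluster on both axes, with the direction of the casein MR effect in brackets. The Ugt2b5 and Ugt2b38 cell, at 97.0%, joins a gene that was higher with a gene that was lower.

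Genes with the most similar pattern over the 24 libraries were sought by Pearson's r of log2 CPM among 10151 genes. As diet moves many genes at once, r is a description, and the r of deviations from the group means is given beside it. Ugt2b1 was most like the antisense RNA Hectd2os (r = 0.971, within groups 0.802), the serpin Serpina1d (0.967, within groups 0.861) and Hc, complement component C5 (0.958, within groups 0.744). Ugt2b38 had few counts, 0 to 72 per library, which limits what its r can show. It was most like the serpin Serpina3k (0.950, within groups 0.759) and the steroid dehydrogenase Hsd3b5 (0.945, within groups 0.733). Next came Ghr, the growth hormone receptor (0.933, within groups 0.688).

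That the genes that rose had other companions follows from the ranking, which took the highest positive r with the diet differences left in. Ugt2b35 was most like Epb41l1 (0.974, within groups 0.707), the glycyl-tRNA synthetase Gars (0.954, within groups 0.323) and the zinc transporter Slc39a4 (0.944, within groups 0.366). Ugt2b34 was most like the prohibitin Phb2 (0.945, within groups 0.602), Slc39a4 (0.944, within groups 0.520) and the lysosomal glucosidase Gaa (0.932, within groups 0.602). Ugt2b36 was most like Akr1a1 (0.923, within groups 0.599), an enzyme that reduces glucuronate, then the ferritin light chain Ftl1 (0.909, within groups 0.498) and the carboxylesterase Ces1b (0.908, within groups 0.445). Ugt2b5 was most like Pgrmc1, a haem-binding membrane protein (0.915, within groups 0.784), Hacl1, a lyase of fatty acid oxidation (0.911, within groups 0.846) and Cdc34 (0.901, within groups 0.709), and Ugt2b37, at few counts, was most like Smarcc2 (0.846), Serf2 (0.810) and Camk1d (0.80; within groups 0.681, 0.552 and 0.406). Serpina and Ces1 genes have close copies, so that their own values are uncertain.

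Of 15 other UGT genes listed, 6 had a row and were tested, too few for their counts to be set apart from the shares of all genes called. With elemental MR 0 of 6 passed (0 with edgeR, DESeq2 and limma-voom, and 0 at an unadjusted p under 0.05 with edgeR), with a median log2 fold change of 0.02 against -0.0028 over all genes. With casein MR 0 rose and 2 fell, where 10.6% of all genes were called higher and 12.7% lower, with a median of 0.11 against 0.0097 over all genes. Ugt2a3, which lies between Ugt2b37 and Ugt2b38, stood at 191 ± 12.6 CPM in casein MR and 261 ± 44.0 CPM in casein control (log2 fold change -0.45 ± 0.08, adjusted p = 1.82e-04), and at 240 ± 17.1 CPM in elemental MR and 248 ± 16.2 CPM in elemental control (-0.05 ± 0.08, adjusted p = 0.761). Ugt1a5, at few counts, fell to 0.397 ± 0.128 CPM in casein MR, against 1.30 ± 0.864 CPM in casein control (-1.70 ± 0.37, adjusted p = 0.00111). The difference between the MR effects was not called for Ugt2a3 (adjusted p = 0.074) or Ugt1a5 (adjusted p = 0.378). Ugt1a1, the bilirubin-conjugating enzyme, did not pass with elemental MR (-0.53 ± 0.43, adjusted p = 0.487) or with casein MR (0.72 ± 0.45, adjusted p = 0.281), and as Ugt1a genes share their last exons the division of reads among them is uncertain.

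The donor sugar list held 12 genes, 11 of them tested. With elemental MR 3 rose and 3 fell (median -0.10), where 6.78% of all genes were called higher and 6.64% lower. With casein MR 3 rose and 4 fell (median -0.13), where 10.6% of all genes were called higher and 12.7% lower. The 3 that rose were the same on both protein sources. Ugdh, which oxidises UDP-glucose to UDP-glucuronate, stood at 162 ± 29.1 CPM in elemental MR and 69.0 ± 10.8 CPM in elemental control (log2 fold change 1.24 ± 0.14, adjusted p = 1.16e-06). It stood at 192 ± 29.2 CPM in casein MR and 70.1 ± 17.3 CPM in casein control (1.46 ± 0.15, adjusted p = 2.08e-08).

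Slc35d1, which carries UDP-glucuronate into the endoplasmic reticulum, rose by 0.65 ± 0.07 with elemental MR (268 ± 31.9 CPM against 170.3 ± 9.55, adjusted p = 8.17e-07) and by 0.60 ± 0.07 with casein MR (286 ± 33.8 CPM against 189 ± 7.86, adjusted p = 7.89e-07). Mice also use glucuronate to make vitamin C, through Akr1a1, Rgn and Gulo in that order. Akr1a1 rose by 0.37 ± 0.05 with elemental MR (adjusted p = 2.97e-05) and by 0.27 ± 0.05 with casein MR (adjusted p = 4.86e-04). Rgn fell by 0.55 with elemental MR (adjusted p = 4.37e-05) and fell by 0.68 with casein MR (adjusted p = 5.06e-07).

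Gulo, the last enzyme of vitamin C synthesis, stood at 459 ± 45.0 CPM in elemental MR and 690.4 ± 70.8 CPM in elemental control (log2 fold change -0.59 ± 0.10, adjusted p = 1.79e-04). It stood at 307 ± 24.7 CPM in casein MR and 826 ± 156 CPM in casein control (-1.43 ± 0.10, adjusted p = 4.40e-11). The fall was larger with oxidised casein by a log2 difference of -0.84 ± 0.14 (adjusted p = 8.69e-04). The transporter Slc35d2 fell on both (-0.24 and -0.36, adjusted p = 0.0317 and adjusted p = 5.92e-04), and Dcxr fell with casein MR (-0.33, adjusted p = 0.0173). For Dcxr the difference between the MR effects was not called (adjusted p = 0.369). Ugp2, which makes UDP-glucose, had values of 0.13 ± 0.11 with elemental MR and -0.13 ± 0.11 with casein MR (adjusted p = 0.507 and adjusted p = 0.446).

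Of the 8 genes that export, take up or cleave glucuronides, 2 rose and 2 fell with elemental MR (median -0.0091). The shares of all genes called there were 6.78% higher and 6.64% lower. With casein MR 2 rose and 3 fell (median -0.06), where 10.6% of all genes were called higher and 12.7% lower. The exporters of the sinusoidal membrane rose. Abcc4 stood at 7.03 ± 3.52 CPM in elemental MR and 2.10 ± 0.443 CPM in elemental control (1.73 ± 0.24, adjusted p = 1.46e-05), and at 14.9 ± 2.24 CPM in casein MR and 2.73 ± 0.421 CPM in casein control (2.45 ± 0.23, adjusted p = 9.10e-09). Abcc3 rose by 0.45 ± 0.10 with elemental MR (adjusted p = 0.0037) and by 0.67 ± 0.10 with casein MR (adjusted p = 1.68e-05).

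Abcc2, the exporter of the bile canaliculus, had values of 0.02 ± 0.08 with elemental MR and -0.01 ± 0.08 with casein MR, with adjusted p = 0.934 and adjusted p = 0.936. The uptake carrier Slco1a1 fell by 1.03 with elemental MR (adjusted p = 0.0218) and fell by 1.67 with casein MR (adjusted p = 1.71e-04). Another carrier, Slco1a4, did not pass with elemental MR (1.11 ± 0.39, adjusted p = 0.0627) or casein MR (-0.10 ± 0.40, adjusted p = 0.895). Slco1a4 was called lower in casein MR than in elemental MR (-1.28, adjusted p = 0.0499). Abcg2 fell with elemental MR (-0.48, adjusted p = 0.00192), Slco1b2 fell with casein MR (-0.52, adjusted p = 1.78e-04), and so did the cleaving enzyme Gusb (-0.35, adjusted p = 0.00768). The difference between the MR effects was not called for Abcg2, Slco1b2 or Gusb (adjusted p = 0.0637, 0.0559 and 0.494).

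**Figure D5:**
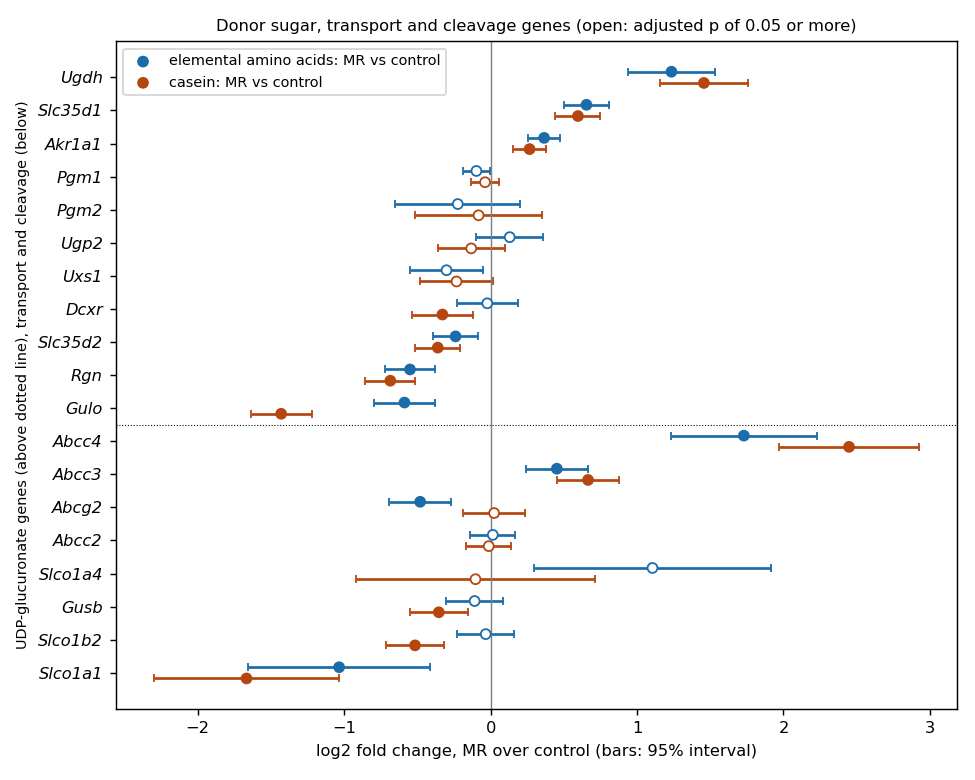
Log2 fold change of MR over control (x axis, with 95% intervals) for genes of UDP-glucuronate supply and use (above the dotted line) and of glucuronide transport and cleavage (below it), for both protein sources; filled points passed an adjusted p of 0.05. Ugdh, Slc35d1, Akr1a1, Abcc4 and Abcc3 lie right of 0 with both protein sources, and Rgn, Gulo and Slco1a1 left of 0.

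Sulfotransferases compete with UGT enzymes for many steroids and phenols. Of 15 genes listed for sulfation, 10 were tested. With elemental MR 1 rose and 3 fell (median -0.10), where 6.78% of all genes were called higher and 6.64% lower. With casein MR 0 rose and 6 fell (median -0.33), where 10.6% of all genes were called higher and 12.7% lower. Sult1b1 stood at 14.7 ± 3.55 CPM in casein MR and 42.3 ± 4.33 CPM in casein control (-1.52 ± 0.13, adjusted p = 2.45e-09), and at 24.7 ± 2.71 CPM in elemental MR and 34.5 ± 7.02 CPM in elemental control (-0.48 ± 0.13, adjusted p = 0.0131). Its fall was larger with oxidised casein by a log2 difference of -1.03 ± 0.19 (adjusted p = 0.00187). Sult1a1 fell with casein MR (-0.91, adjusted p = 1.29e-06) and had a value of -0.11 with elemental MR (adjusted p = 0.611), with a difference of -0.80 ± 0.17 (adjusted p = 0.00642). Sult2a8 had log2 fold changes of -0.58 with elemental MR and -0.72 with casein MR (adjusted p = 0.00817 and adjusted p = 5.95e-04), and Papss1, which makes the sulfate donor, of -0.57 and -0.32 (adjusted p = 0.00126 and adjusted p = 0.0426). Sult1c2 was the 1 gene that rose with elemental MR (0.97, adjusted p = 0.00416), and Sult5a1 (-2.33, adjusted p = 7.87e-05) and the PAPS transporter gene Slc35b2 (-0.33, adjusted p = 0.0118) fell with casein MR. The difference between the MR effects was not called for Sult1c2, Sult5a1 or Slc35b2 (adjusted p = 0.200, 0.237 and 0.514).

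Of 19 transcription factors known to act on UGT genes, all tested, 1 rose and 2 fell with elemental MR (median -0.05). With casein MR 0 rose and 4 fell (median 0.0036). Of all genes tested, 6.78% were called higher and 6.64% lower with elemental MR, and 10.6% higher and 12.7% lower with casein MR. In either direction these were 13.4% and 23.3%, and the counts of the list lay near those shares. Cebpa fell by 0.27 with elemental MR (adjusted p = 0.01) and fell by 0.47 with casein MR (adjusted p = 9.84e-06). The receptor gene Nr1i3 (CAR) rose with elemental MR (0.41, adjusted p = 0.0154), and Ppara (-0.59) and Nr1h4 (FXR, -0.32) fell with casein MR (adjusted p = 0.00762 and adjusted p = 0.00263). Nr1i3 had a value of 0.15 with casein MR, and Ppara and Nr1h4 of -0.39 and -0.12 with elemental MR, none of them called. The difference between the MR effects was not called for Nr1i3, Ppara or Nr1h4 (adjusted p = 0.554, 0.804 and 0.468). For Nfe2l2, the gene of NRF2, the values were -0.10 and -0.13 with elemental and casein MR (adjusted p = 0.443 and adjusted p = 0.234).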

How the data were processed

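RNA was sequenced from 24 liver samples in 4 diet groups of 6. The raw table holds read counts per Ensembl gene, as deposited by the authors; the sources used here do not name the aligner, counter, strand or build. The deposited normalized signal is the raw count over a size factor of its library (0.745 to 1.32) and was used only for gene symbols.

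Counts were fitted in R 4.3.3 with edgeR 4.0.16: filterByExpr left 13441 of 15161 genes, libraries were scaled by TMM, and all 24 were modelled together by the quasi-likelihood method, group by group. Adjustment of p-values (Benjamini-Hochberg) ran over all genes tested in a comparison, with calls under 0.05. Standard errors were derived from the fold change and its F statistic. The code was tested on simulated counts. Log2 CPM used a prior count of 2.

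Alternatives were scaling by DESeq2's size factors or by upper quartiles, leaving out the filter, a stricter one (a group with all libraries at 1 CPM or more), DESeq2 1.42.0, limma-voom with quality weights (limma 3.58.1), the compared groups alone, and leaving out each library. Coding sequences and exon lengths came from GENCODE vM21, promoters from RefSeq (7 of 7 members matched), and identity from global alignment (Biopython 1.88).

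The members, gene lists and motifs were chosen with earlier results of these data known. Named genes were the 7 members, the called genes of 5 pathway lists (up to 5 per list by smallest p, with a few more named after their values were seen), and for each member the 3 genes of highest r among those averaging 1 or more in log2 CPM. Replicate numbers are unique to each library, 0 of 60 library pairs within groups were identical, and 0 per-sample columns were left unused. Results for some transcription factor genes of the lists are not reported here.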

Additional observations from a re-analysis of the deposited data

Results flagged for a closer look

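In 32 groups of 6 libraries (7 genes and their sum in 4 diets), the gap of the highest or lowest library to the rest was checked against Dixon's 95% limit, which chance passes in about 1 of 20 groups, and 2 groups passed it. Ugt2b35 stood at 251 CPM in E_MR_3405, while the other 5 elemental MR libraries ran from 178 to 202 CPM. The same library had the highest Ugt2b5 level (755 CPM) and the lowest Ugt2b1 level (298 CPM) of its group. Without it the log2 fold change of Ugt2b35 with elemental MR was 1.19, against 1.27 with all libraries, the largest move among the 12 libraries left out in turn. The summed Ugt2b level stood at 1791 CPM in E_C_3430, while the other 5 elemental control libraries ran from 1683 to 1721 CPM. That library also had the highest Ugt2b1 level of its group, 671 CPM.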

How the results depend on the processing

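No paired analysis was possible because the compared groups share no replicate numbers. In the MR comparisons the 7 members gave 266 values under the alternatives, 168 of them from leaving out a library: 0 turned direction, 0 lost a call and 4 gained one, all of Ugt2b37 with elemental MR. The number of members called when leaving out each library was 6 to 7 (elemental MR), 7 (casein MR), 0 to 1 (difference; 1 without C_C_3407 or C_C_3421, in each case Ugt2b1), 0 (control diets) and 1 to 2 (MR diets; 2 without C_MR_3425). The number of all genes called was 1400 to 1778, 2851 to 3095, 227 to 404, 5 to 33 and 664 to 835 in the same order. For the control diets the 14 genes called became 90 with DESeq2, 3 with limma-voom, 7 with the compared groups alone, 9 without E_C_3417, 7 without E_C_3418, C_C_3413 or C_C_3429, 5 without E_C_3428, C_C_3421 or C_C_3436, and 33 without C_C_3407; the cause was not tested. Values near 0 that were never called turned sign. Between the MR diets Ugt2b5 was 4.52e-06 with the stricter filter, 0.014 with limma-voom and 0.00647 with the compared groups alone, and Ugt2b35 was 0.0082 with limma-voom. Leaving out libraries gave -0.083 to 0.072 for Ugt2b5 and -0.055 to 0.052 for Ugt2b35 between the MR diets, -0.041 to 0.14 for Ugt2b5 and -0.073 to 0.017 for Ugt2b34 in the difference, and -0.064 to 0.11 for Ugt2b1, -0.14 to 0.025 for Ugt2b5 and -0.33 to 0.047 for Ugt2b38 between the control diets. Ugt2b38 had no value between the MR diets alone because the filter removed it. The low counts of Ugt2b37 and Ugt2b38 limit what can be said of them.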

Other observations

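Over the deviations of the 24 libraries from their group means, the 21 pairs of members had Pearson's r from 0.003 (Ugt2b5 and Ugt2b37) to 0.606 (Ugt2b34 and Ugt2b35), and none was negative. The deviations of Ugt2b5 and Ugt2b38, the most similar pair in coding sequence, had r = 0.331 within groups and r = -0.581 over all 24 libraries with the diet differences left in. Ugt2b1 and Ugt2b38 had r = 0.873 over all libraries and 0.348 within groups. The libraries share their scaling and depth, so these values are a description only.

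The relative spread of Ugt2b1 differed among diets. Its lowest and highest CPM were 239 and 261 in casein MR, 298 and 389 in elemental MR, 378 and 713 in casein control and 498 and 671 in elemental control. The spread was not tested between groups.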
